A study of Homo sapiens with 6 samples.

Results

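The 36 genes described here encode enzymes of cholesterol and fatty acid synthesis, regulators of the sterol response and lipid transport proteins. They were taken by symbol from a list limited to genes present in the deposited table, so that each of the 36 has a measured transcript by choice, and they are 36 of the 12010 genes that the transcripts of that table name. The direction of their change was not part of the rule, but the list was chosen with earlier results of these data known. The list holds 8 mevalonate pathway enzymes, 11 enzymes that run from squalene to cholesterol, 5 regulators of the SREBP transcription factors, 2 sterol transport proteins and 10 fatty acid and glycerolipid enzymes.

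RNA was sequenced from 92.1, an established human uveal melanoma cell line grown with serum, in 6 libraries. In 3 libraries, the cells had received LBH589 (panobinostat, an inhibitor of histone deacetylases) at 0.1 µM for 24 h, and in the other 3 the vehicle DMSO for 24 h. All libraries come from that 1 line, with no genetic change named. The labels number the replicates 1 to 3 but do not say that they were separate cultures, so p-values measure the spread between these libraries, which may be technical.

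Cholesterol is built in the cytosol and endoplasmic reticulum from acetyl-CoA through mevalonate, isoprenoid diphosphates, squalene and lanosterol, and the same acetyl-CoA feeds fatty acid synthesis. Both pathways are targets of the SREBP transcription factors, which SCAP escorts to the Golgi for cleavage when sterols are scarce and which INSIG proteins hold back when sterols are plentiful. INSIG1 is itself an SREBP target. SREBP binding at such promoters is known to be helped by NF-Y, which reads CCAAT, and by SP1, which reads GGGCGG.

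Promoters are shown first, because many of the 36 genes, though not all, are known for shared regulation by SREBP. Some of the 36 moved in opposite directions, and whether promoter letters bear on that was not tested. RefSeq windows from 250 bases before to 50 after an annotated start (GRCh38.p14) were used for 32 of the 36 genes. For each gene, 1 window was taken, the one nearest to the start of its most abundant transcript. ACAT2, FDFT1, SQLE and FASN are without a window here. Members on 1 chromosome were left out by rule, while the tested genes they are set against were not filtered in that way. CCAAT, on either strand (ATTGG on the other), was present in 23 of the 32 windows (71.9%), against 37.6% of the 9210 tested genes with a window. At least 2 copies were present in 15 of the 32 (46.9%), against 14.1%. Among the sterol synthesis enzymes, 14 of 16 windows (87.5%) held CCAAT and 10 (62.5%) held at least 2 copies. It was present in 9 of 13 windows (69.2%) of members that fell after LBH589, in 4 of 5 (80.0%) of those that rose and in 10 of 14 (71.4%) of those not called.

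The SP1 letters GGGCGG, on either strand, were present in 29 of the 32 windows (90.6%), against 73.7% of all tested genes with a window. At least 2 copies of GGGCGG were present in 17 of the 32 (53.1%), near the 49.4% of all tested genes with a window. The E-box CACGTG, which reads the same on both strands, was present in 6 (18.8%), against 10.3%. The sterol element letters TCACNCCAC, on either strand, were present in 1 window (3.12%), that of SREBF2, 133 bases before the start, against 1.03%. A match is a description of letters, and its absence says only that these letters are not in that window. For ACACA, SCAP and FADS2, the window lay 93955, 32639 and 23893 bases from the start of the most abundant measured transcript. For EBP, MVK and PMVK, that start lay 650, 492 and 272 bases upstream of the RefSeq start, so it lies before the window. Over all 35116 windows of the RefSeq table, the shares were 34.6% for CCAAT, 45.0% for GGGCGG, 7.26% for CACGTG and 1.13% for TCACNCCAC.

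The stretches printed below, each cut to end before the annotated starts, show 2 genes that rose (IDI1, INSIG1), 4 that fell (HMGCS1, MSMO1, NSDHL, SCD) and the regulator SREBF2, which was not called. These genes were picked by hand and all hold CCAAT, so they do not stand for all called members. CYP51A1, ELOVL6, FADS1 and LPIN1, which fell, and INSIG2, which rose, had no CCAAT in their windows and are not printed. The stretches are written 5′ to 3′ on the strand of the gene, and capitals mark CCAAT, its reverse complement ATTGG and, in SREBF2, TCACNCCAC. They lie at chr10:1049171-1049369 (minus strand), chr7:155297628-155297775 (plus), chr5:43313494-43313662 (minus), chr4:165327419-165327622 (plus), chrX:152830813-152830996 (plus), chr10:100346983-100347123 (plus) and chr22:41832855-41833104 (plus) in GRCh38.p14.
IDI1: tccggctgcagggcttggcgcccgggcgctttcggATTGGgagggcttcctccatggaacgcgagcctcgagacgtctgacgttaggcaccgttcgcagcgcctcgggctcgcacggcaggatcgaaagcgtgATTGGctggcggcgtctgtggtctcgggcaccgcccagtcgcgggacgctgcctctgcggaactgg
INSIG1: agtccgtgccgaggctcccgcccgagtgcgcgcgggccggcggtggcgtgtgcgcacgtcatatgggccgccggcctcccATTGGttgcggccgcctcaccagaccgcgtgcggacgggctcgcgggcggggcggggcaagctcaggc
HMGCS1: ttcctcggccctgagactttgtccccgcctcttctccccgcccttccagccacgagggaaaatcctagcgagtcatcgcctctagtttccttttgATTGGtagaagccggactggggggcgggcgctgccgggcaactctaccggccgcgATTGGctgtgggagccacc
MSMO1: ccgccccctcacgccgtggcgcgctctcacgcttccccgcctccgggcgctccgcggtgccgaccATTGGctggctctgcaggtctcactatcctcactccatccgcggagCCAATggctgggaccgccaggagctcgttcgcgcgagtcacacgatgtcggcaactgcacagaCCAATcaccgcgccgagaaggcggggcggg
NSDHL: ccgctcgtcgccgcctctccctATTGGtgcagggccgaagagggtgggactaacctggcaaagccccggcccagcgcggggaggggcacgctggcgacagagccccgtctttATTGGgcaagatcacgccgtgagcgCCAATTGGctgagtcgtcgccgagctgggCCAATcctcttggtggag
SCD: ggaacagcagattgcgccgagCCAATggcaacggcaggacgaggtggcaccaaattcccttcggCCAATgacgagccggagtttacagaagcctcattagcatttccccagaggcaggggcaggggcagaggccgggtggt
SREBF2: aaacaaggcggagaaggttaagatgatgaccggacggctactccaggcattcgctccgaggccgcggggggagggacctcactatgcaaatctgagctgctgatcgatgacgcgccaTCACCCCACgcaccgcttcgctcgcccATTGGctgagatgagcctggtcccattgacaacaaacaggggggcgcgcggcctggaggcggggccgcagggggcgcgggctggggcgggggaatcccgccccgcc
IDI1, which rose, and HMGCS1, which fell, each held 2 copies of ATTGG, at 215 and 117 bases before the RefSeq start for IDI1 and at 155 and 100 for HMGCS1. In NSDHL, 2 of the 5 matches overlap within CCAATTGG. MSMO1 held 4 copies, 3 of them in the printed stretch, and INSIG1 held 1.

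Levels are given in FPKM (fragments scaled to transcript length and to the mapped fragments of the library), summed over the listed transcripts of a gene. Log2 fold changes are LBH589 minus DMSO of log2(FPKM + 1). The added 1 makes the change of weakly expressed genes look smaller than it is. Fold changes are given with the standard error (SE) of limma's moderated linear model. A gene was called at a Benjamini-Hochberg adjusted p below 0.05 over the 11520 tested genes. The 3 values of a group are given in the order of replicates 1, 2 and 3. In bulk RNA, fewer cells and less RNA per cell cannot be told apart, and FPKM values give no absolute amount.

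Summed FPKM was 397174 to 422630 in the DMSO libraries and 355148 to 367222 in the LBH589 libraries, and mitochondrially encoded genes took 35.8 to 45.7% and 35.1 to 37.3% of it. Depth in reads is unknown from these values. Of 7 melanocyte markers, all were measured and 6 fell, with a summed level of 2530 to 2670 FPKM in DMSO and 718 to 774 FPKM in LBH589. Of the other marker genes, 2 of 5 for fibroblasts were listed (COL1A1 and LUM, which both rose, summing to 1.47 to 2.52 FPKM in DMSO and 4.23 to 5.55 FPKM in LBH589), 1 of 4 for leukocytes (CD68, not called, 11.6 to 16.8 and 6.69 to 12.4 FPKM), 0 of 3 for endothelium and 2 of 4 for epithelium (0.444 to 0.872 and 1.21 to 1.66 FPKM, EPCAM rose and passed the minimum mean of 0.5 FPKM only through LBH589). The part of these shifts in the results below was not tested.

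Of the 36 genes, all of which were tested, 17 fell and 5 rose after LBH589, and 14 were not called. Over all tested genes, 21.6% fell and 27.2% rose. The members that rose were IDI1, TM7SF2, INSIG1, INSIG2 and STARD4. The median log2 fold change was -0.55 over the 36 genes and 0.08 over all tested genes. With libraries scaled to equal sums, 17 fell and 5 rose again, and the medians were -0.38 and 0.22; over all tested genes, 17.4% then fell and 32.4% rose. Without overlap between the 3 DMSO and the 3 LBH589 libraries, 20 members were lower and 6 higher, and 10 overlapped, where 59.5% of all tested genes did not overlap in either direction. By direction, 3053 of the 11520 tested genes were lower and 3796 higher without overlap. By role, 3 of 8 mevalonate enzymes fell and 1 rose, 7 of 11 squalene and sterol enzymes fell and 1 rose, 2 of 5 regulators rose, 1 of 2 transport genes rose and 7 of 10 fatty acid genes fell. The gene TM7SF2 passed the minimum mean of 0.5 FPKM only through its LBH589 libraries.

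**Figure D1:**
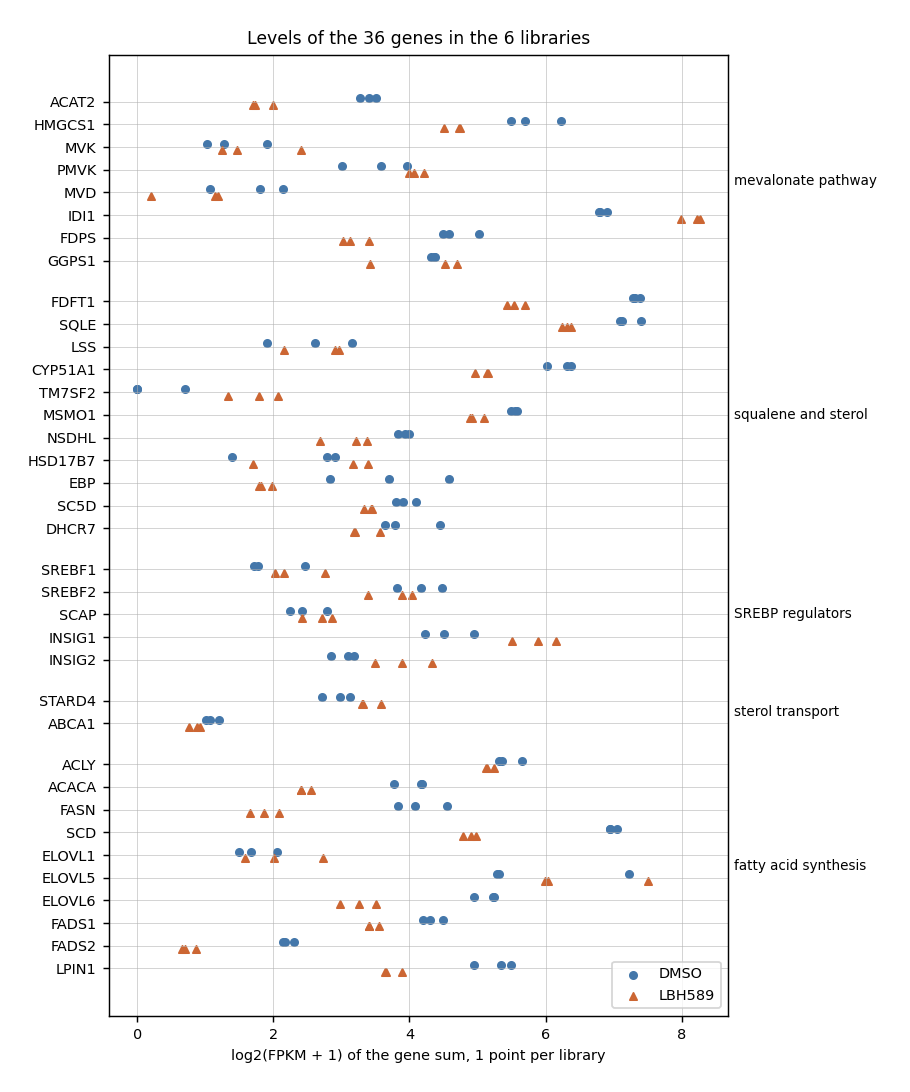
Level of each of the 36 genes in each library, as log2(FPKM + 1) of the gene sum, with circles for the 3 DMSO and triangles for the 3 LBH589 libraries, grouped by role. The groups are apart for 26 genes, of which 20 are lower and 6 higher in LBH589, and for 59.5% of all tested genes. ELOVL5 spreads widely within both groups.

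**Figure D2:**
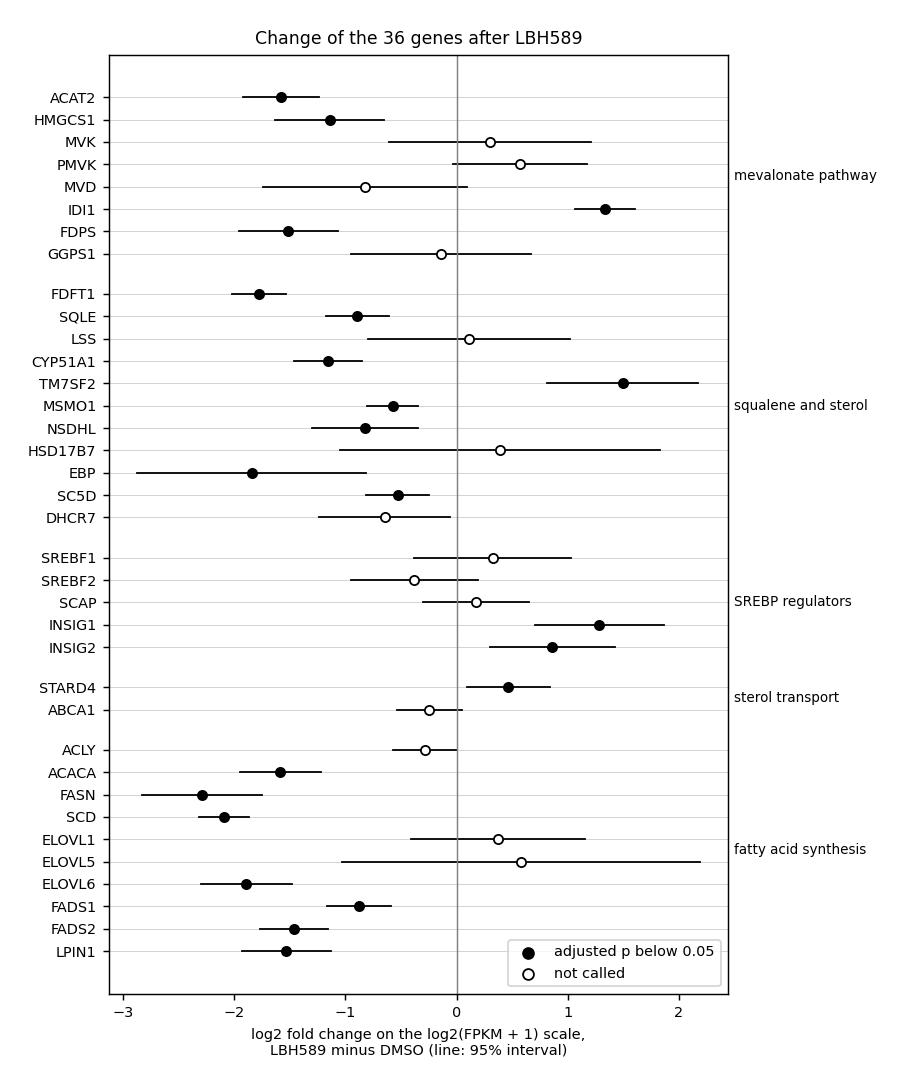
Log2 fold change of each gene (LBH589 minus DMSO on the log2(FPKM + 1) scale) with its 95% interval, filled where the adjusted p was below 0.05. The 17 filled points left of 0 reach from -0.53 for SC5D to -2.29 for FASN, and the 5 filled points right of 0 reach from 0.47 for STARD4 to 1.5 for TM7SF2.

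In the mevalonate pathway, the early enzymes fell and IDI1 rose. ACAT2 (acetoacetyl-CoA thiolase, the first step) measured 9.60, 8.63 and 10.4 FPKM in DMSO and 2.998, 2.26 and 2.33 FPKM in LBH589. Every LBH589 library was below every DMSO library, and the log2 fold change was -1.58 (SE 0.14, adjusted p = 0.000299). Its exons overlap those of genes on the opposite strand, SOD2 over 1141 bases (5.27 FPKM in DMSO and 8.399 FPKM in LBH589 on average) and TCP1 over 397 bases (59.4 and 58.5 FPKM). Whether the counting used strand is not given in the sources used here. HMGCS1, the synthase that makes HMG-CoA, measured 43.9, 73.6 and 50.9 FPKM in DMSO and 25.8, 25.5 and 21.7 FPKM in LBH589. The groups were apart although the DMSO libraries spread widely, and the log2 fold change was -1.14 (SE 0.20, adjusted p = 0.00468).

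The next steps of the pathway, the mevalonate kinases and the decarboxylase, were not called. MVK, mevalonate kinase, measured 2.75, 1.42 and 1.04 FPKM in DMSO and 1.76, 4.29 and 1.37 FPKM in LBH589, with overlapping groups and a 95% interval of the log2 fold change from -0.61 to 1.21. The exons of MVK share 306 bases with MMAB on the opposite strand (3.05 FPKM in DMSO and 1.25 FPKM in LBH589 on average). PMVK, phosphomevalonate kinase, measured 14.6, 10.9 and 7.03 FPKM in DMSO and 14.9, 17.6 and 15.7 FPKM in LBH589. All 3 LBH589 libraries of PMVK lay above the DMSO libraries, by a narrow margin over replicate 1 (log2 fold change 0.57, 95% interval -0.03 to 1.17, adjusted p = 0.105), and without that DMSO library the adjusted p was 0.0262. MVD, the decarboxylase that yields isopentenyl diphosphate, measured 3.40, 2.48 and 1.11 FPKM in DMSO and 1.28, 0.155 and 1.21 FPKM in LBH589. Its groups overlapped, and the interval ran from -1.75 to 0.10.

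IDI1, the isomerase that interconverts isopentenyl and dimethylallyl diphosphate, measured 109, 110.5 and 118 FPKM in DMSO and 255, 299.9 and 307 FPKM in LBH589. The libraries within each group lay close together and the groups were far apart, with LBH589 2.55-fold higher by the means (log2 fold change 1.34, SE 0.11, adjusted p = 0.00022). FDPS, the farnesyl diphosphate synthase that uses the product of IDI1, measured 31.5, 21.5 and 22.8 FPKM in DMSO and 7.14, 7.70 and 9.56 FPKM in LBH589. FDPS was lower in every LBH589 library, 3.11-fold by the means (log2 fold change -1.51, SE 0.18, adjusted p = 0.00101), and its value is uncertain in that 8 pseudogenes are named after it. The neighbouring steps IDI1 and FDPS thus moved in opposite directions. Their FPKM ratio was 3.47, 5.14 and 5.18 in DMSO and 35.7, 38.9 and 32.2 in LBH589. GGPS1, which makes geranylgeranyl diphosphate for protein prenylation, measured 19.01, 19.4 and 19.8 FPKM in DMSO and 24.98, 9.75 and 21.9 FPKM in LBH589. The LBH589 libraries of GGPS1 fell on both sides of the tight DMSO values, and the interval of its log2 fold change ran from -0.95 to 0.67.

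From squalene onward, 7 of 11 enzymes fell. FDFT1, the squalene synthase that commits farnesyl diphosphate to sterols, measured 155, 158 and 166 FPKM in DMSO and 45.4, 42.4 and 50.7 FPKM in LBH589. It was lower by 3.46-fold, with little spread in either group (log2 fold change -1.77, SE 0.10, adjusted p = 6.27e-05). SQLE, the squalene epoxidase, measured 138, 136 and 169 FPKM in DMSO and 78.9, 82.0 and 74.9 FPKM in LBH589, a smaller fall that still left the groups apart (log2 fold change -0.89, SE 0.12, adjusted p = 0.0013). The FPKM ratio of SQLE to FDFT1 was 0.891, 0.857 and 1.02 in DMSO and 1.74, 1.94 and 1.48 in LBH589. LSS, which closes the ring to lanosterol, measured 7.93, 5.09 and 2.76 FPKM in DMSO and 3.46, 6.77 and 6.47 FPKM in LBH589. Its groups overlapped and the interval of the log2 fold change ran from -0.80 to 1.02.

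CYP51A1, the lanosterol demethylase, measured 64.0, 78.8 and 81.8 FPKM in DMSO and 34.6, 34.3 and 30.1 FPKM in LBH589. It was 2.27-fold lower with the groups well apart (log2 fold change -1.15, SE 0.13, adjusted p = 0.000687), and 3 pseudogenes are named after it. MSMO1, the methylsterol monooxygenase that follows, measured 44.1, 45.9 and 46.9 FPKM in DMSO and 29.4, 33.1 and 28.7 FPKM in LBH589. The fall of MSMO1 was one of the smaller ones, at 1.503-fold, and rested on close replicates (log2 fold change -0.57, SE 0.09, adjusted p = 0.00323). NSDHL, its partner dehydrogenase, measured 13.2, 14.9 and 14.3 FPKM in DMSO and 8.26, 5.45 and 9.42 FPKM in LBH589. All LBH589 libraries of NSDHL were lower (log2 fold change -0.83, SE 0.20, adjusted p = 0.0146).

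EBP, the sterol isomerase, measured 12.02, 6.13 and 22.9 FPKM in DMSO and 2.96, 2.51 and 2.46 FPKM in LBH589. The DMSO libraries of EBP differed among themselves several-fold, yet all were above LBH589 (log2 fold change -1.84, SE 0.42, adjusted p = 0.013). SC5D, the desaturase of the late pathway, measured 12.9, 16.1 and 14.0 FPKM in DMSO and 9.79, 9.94 and 9.04 FPKM in LBH589, a small fall (log2 fold change -0.53, SE 0.12, adjusted p = 0.0108). DHCR7, which reduces 7-dehydrocholesterol to cholesterol, measured 20.8, 12.9 and 11.4 FPKM in DMSO and 10.8, 8.16 and 8.09 FPKM in LBH589. Its groups did not overlap but nearly touched, and it was not called (log2 fold change -0.65, 95% interval -1.23 to -0.06, adjusted p = 0.0696). With DMSO replicate 3 left out, the adjusted p of DHCR7 was 0.0464. HSD17B7, the 3-ketosteroid reductase, measured 6.503, 1.61 and 5.88 FPKM in DMSO and 2.26, 7.99 and 9.45 FPKM in LBH589, with overlapping groups and an interval from -1.05 to 1.84. After HSD17B7, 2 pseudogenes are named.

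TM7SF2, one of the sterol reductases, had listed values of 0, 0.630 and 0 FPKM in DMSO against 3.21, 2.46 and 1.51 FPKM in LBH589. It stayed the lowest or among the lowest of the 36 genes in both groups, at rank 36 in DMSO and rank 33 in LBH589, but every LBH589 library was above DMSO. The log2 fold change was 1.5 (SE 0.28, adjusted p = 0.0058), and no fold of the means is given against values listed at 0. Its LBH589 values came from ENST00000525385.5_1 in replicate 1 and from ENST00000279263.11_1 in replicates 2 and 3, and with the more abundant transcript alone the adjusted p was 0.285.

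Over the 19 sterol synthesis enzymes, 10 fell and 2 rose, with a median log2 fold change of -0.65. Their summed level was 709, 725 and 767 FPKM in DMSO and 563, 602 and 612 FPKM in LBH589. Without IDI1, the sum of the other 18 was 599.8, 614 and 648 FPKM in DMSO and 308, 302 and 305 FPKM in LBH589. IDI1 made up 15.4, 15.2 and 15.5% of the summed FPKM in DMSO and 45.3, 49.8 and 50.2% in LBH589. FDFT1, the most abundant of the 36 genes in DMSO, went from 21.9, 21.9 and 21.7% to 8.08, 7.04 and 8.28%. These shares describe RNA levels per length and were not tested on their own.

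**Figure D3:**
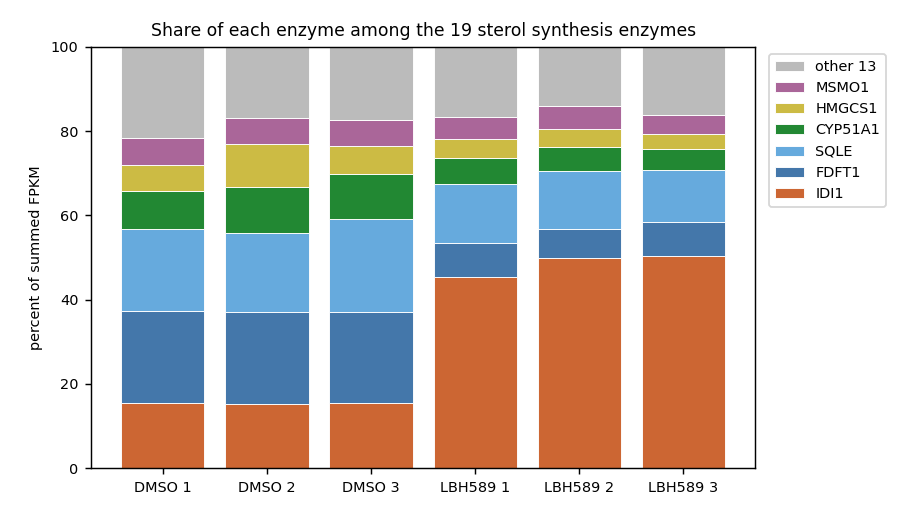
Percent of the summed FPKM of the 19 sterol synthesis enzymes taken by 6 of them and by the other 13, in each library. The IDI1 segment is near 15% in the 3 DMSO libraries and between 45.3 and 50.2% in the 3 LBH589 libraries, and the FDFT1 segment narrows from about 22% to 7.04 to 8.28%.

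Among the SREBP regulators, the 2 INSIG genes rose and the SREBP and SCAP genes were not called. INSIG1, the sterol-dependent anchor that keeps SCAP in the endoplasmic reticulum, measured 21.8, 29.9 and 17.7 FPKM in DMSO and 44.4, 58.4 and 69.9 FPKM in LBH589. The lowest LBH589 library was above the highest DMSO library, and the mean was 2.49-fold higher (log2 fold change 1.29, SE 0.24, adjusted p = 0.00577). The FPKM ratio of INSIG1 to HMGCS1 was 0.497, 0.406 and 0.348 in DMSO and 1.72, 2.29 and 3.22 in LBH589. INSIG2, the second anchor protein, measured 7.53, 6.22 and 8.07 FPKM in DMSO and 13.8, 19.1 and 10.3 FPKM in LBH589. The groups were apart (log2 fold change 0.86, SE 0.23, adjusted p = 0.0226), but without DMSO replicate 1, DMSO replicate 2 or LBH589 replicate 1 the adjusted p was 0.0511, 0.0708 and 0.0613.

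SREBF1, which encodes the SREBP more closely tied to fatty acid genes, measured 4.53, 2.29 and 2.42 FPKM in DMSO and 3.44, 3.06 and 5.80 FPKM in LBH589. The groups overlapped (interval -0.38 to 1.03), and its exons share 556 bases with RAI1 on the opposite strand. SREBF2, which encodes the SREBP of the cholesterol genes, measured 21.2, 17.0 and 13.1 FPKM in DMSO and 9.53, 13.8 and 15.4 FPKM in LBH589, also overlapping (log2 fold change -0.38, interval -0.95 to 0.20). SCAP, the escort protein, measured 5.91, 3.74 and 4.37 FPKM in DMSO and 6.24, 5.57 and 4.33 FPKM in LBH589, with an interval from -0.30 to 0.65. All 3 intervals include changes of either sign.

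Of the 2 sterol transport genes, STARD4, a cytosolic sterol carrier, measured 5.54, 6.86 and 7.69 FPKM in DMSO and 8.99, 10.9 and 8.86 FPKM in LBH589. Its rise was the smallest of the calls and close to the threshold (log2 fold change 0.47, SE 0.15, adjusted p = 0.0458), and leaving out any library but DMSO replicate 3 raised the adjusted p to between 0.0793 and 0.141. ABCA1, the exporter of cholesterol to apolipoproteins, measured 1.02, 1.11 and 1.30 FPKM in DMSO and 0.840, 0.688 and 0.892 FPKM in LBH589. Its groups did not overlap, but the difference was not called (log2 fold change -0.25, interval -0.54 to 0.05, adjusted p = 0.141).

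Among the 10 fatty acid and glycerolipid enzymes of the 36, 7 fell and none rose, with a median log2 fold change of -1.5. This holds for these members only. In the separate list of other fatty acid synthesis and activation genes, described below, 8 of 18 tested genes rose and 4 fell. Over all tested genes, 27.2% rose and 21.6% fell. The members that fell include the core pathway from malonyl-CoA to monounsaturated fatty acids, and also the phosphatidate phosphatase LPIN1. ACLY, which makes cytosolic acetyl-CoA from citrate, measured 49.6, 40.1 and 38.9 FPKM in DMSO and 33.8, 36.9 and 34.1 FPKM in LBH589. The groups were narrowly apart and ACLY was not called (log2 fold change -0.28, interval -0.57 to 0.01, adjusted p = 0.0985). ACACA, the acetyl-CoA carboxylase that makes malonyl-CoA, measured 12.6, 17.1 and 17.0 FPKM in DMSO and 4.29, 4.85 and 4.31 FPKM in LBH589. It was 3.48-fold lower (log2 fold change -1.59, SE 0.15, adjusted p = 0.000369). FASN, the fatty acid synthase, measured 22.5, 15.96 and 13.2 FPKM in DMSO and 3.22, 2.62 and 2.15 FPKM in LBH589. Its fall was the largest of the 36 when gene sums were compared with the added 1, 6.47-fold by the means (log2 fold change -2.29, SE 0.22, adjusted p = 0.000436).

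SCD, the desaturase that makes oleate, measured 131, 123 and 123 FPKM in DMSO and 28.9, 30.7 and 26.6 FPKM in LBH589. With tight values in both groups, it was 4.37-fold lower (log2 fold change -2.09, SE 0.09, adjusted p = 3.35e-05), and it went from rank 3 to rank 9 among the 36 genes by level. ELOVL6, the elongase of palmitate, measured 29.7, 37.0 and 36.4 FPKM in DMSO and 8.54, 10.3 and 6.89 FPKM in LBH589, 4.002-fold lower by the means (log2 fold change -1.89, SE 0.17, adjusted p = 0.00032). FADS1, the front-end desaturase of polyunsaturated fatty acids, measured 17.3, 18.6 and 21.6 FPKM in DMSO and 9.63, 9.58 and 10.7 FPKM in LBH589. It fell less than SCD, by 0.87 on the log2 scale (SE 0.12, adjusted p = 0.00157). FADS2, a desaturase that acts earlier in the same pathway, measured 3.92, 3.50 and 3.43 FPKM in DMSO and 0.582, 0.622 and 0.826 FPKM in LBH589. The LBH589 level was 5.34-fold lower (log2 fold change -1.46, SE 0.13, adjusted p = 0.000276) and took FADS2 from rank 30 to rank 36. FADS1 and FADS2 lie on opposite strands and share 490 exonic bases, so their values may not be fully separate. SCD and FADS2 each have 1 pseudogene named after them. FADS2 was not called with transcripts of at least 1000 bases alone (log2 fold change -1.33, adjusted p = 0.113) or with its most abundant transcript (-0.35, adjusted p = 0.621).

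LPIN1, the phosphatidate phosphatase lipin 1, measured 29.9, 43.8 and 39.5 FPKM in DMSO and 11.6, 13.8 and 11.5 FPKM in LBH589, and was 3.07-fold lower (log2 fold change -1.53, SE 0.17, adjusted p = 0.000687). The other 2 elongases among the 36 were not called, and their difference from ELOVL6 was not tested. ELOVL1, of very long saturated chains, measured 3.13, 1.80 and 2.17 FPKM in DMSO and 5.62, 3.03 and 1.99 FPKM in LBH589, with overlap and an interval from -0.41 to 1.16. ELOVL5, of polyunsaturated chains, measured 148, 38.8 and 37.8 FPKM in DMSO and 64.9, 62.9 and 182 FPKM in LBH589. One library in each group was far above its 2 fellows, and the interval of ELOVL5 ran from -1.03 to 2.19.

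The 36 genes were read out through 113 listed transcripts, all annotated as protein coding in GENCODE 29, and 25 of these are shorter than 1000 bases. ACAT2, PMVK, EBP, ABCA1 and SCD have 1 listed transcript each. Of the 31 genes with more, the transcript with the highest FPKM was the same in all 6 libraries for 12 and differed between libraries for 19. In HMGCS1, ENST00000433297.2_1 measured 36.1, 5.97 and 40.8 FPKM in DMSO and ENST00000325110.10_1 measured 7.20, 67.3 and 8.74 FPKM. The same 2 transcripts traded places in LBH589, at 5.07, 2.18 and 16.2 FPKM for the first and 20.5, 23.1 and 5.02 FPKM for the second, so that single transcripts varied far more between replicates than their sum.

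In FASN, ENST00000634990.1_1 led in DMSO replicates 1 and 2 at 16.9 and 14.9 FPKM but was listed at 0 in replicate 3, where ENST00000306749.3_1 led at 9.02 FPKM. INSIG2 was read through ENST00000245787.8_1 at 6.99, 6.03 and 0 FPKM in DMSO, and in replicate 3 through ENST00000614681.1_1 at 8.07 FPKM. In contrast, ENST00000381344.7_1 led for IDI1 in every library, at 103, 104 and 115 FPKM in DMSO and 243, 259 and 296 FPKM in LBH589. When each gene was represented by its most abundant transcript, 12 of the 22 called members kept their call. IDI1, FDFT1, SQLE, CYP51A1, MSMO1, ACAT2, FDPS, EBP, SCD, ELOVL6, FADS1 and LPIN1 were those 12, and HMGCS1 (log2 fold change -0.27, adjusted p = 0.865), ACACA (-2.33, 0.138), FASN (-2.25, 0.226) and INSIG1 (1.28, 0.0586) were among the 10 that were lost. The other 6 were TM7SF2, NSDHL, SC5D, INSIG2, STARD4 and FADS2.

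**Figure D4:**
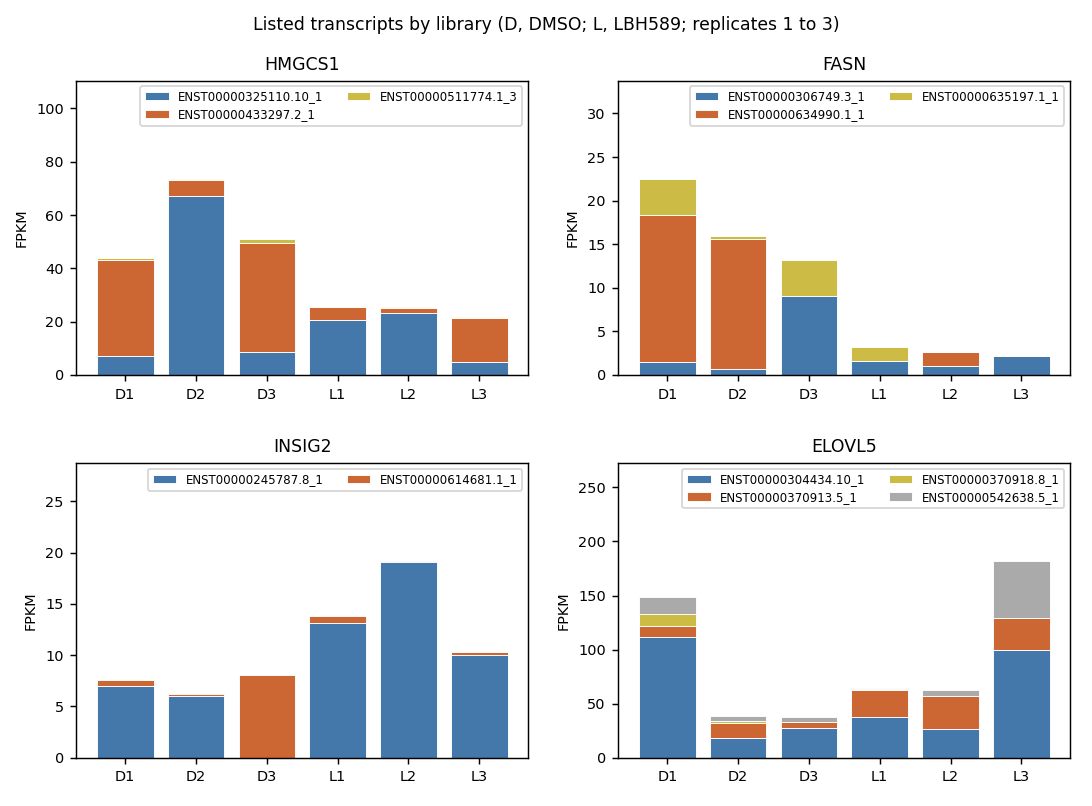
FPKM of each listed transcript in each library for HMGCS1, FASN, INSIG2 and ELOVL5, stacked to the gene sum (D, DMSO; L, LBH589; replicates 1 to 3). The colours trade places between replicates of the same group, while the bar heights of HMGCS1 and FASN are lower in all 3 LBH589 libraries.

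By level, the 5 most abundant of the 36 genes in DMSO were FDFT1, SQLE, SCD, IDI1 and ELOVL5, with means of 159.98, 148, 126, 113 and 75.0 FPKM. In LBH589, they were IDI1, ELOVL5, SQLE, INSIG1 and FDFT1, with means of 287, 103, 78.6, 57.6 and 46.2 FPKM. The neighbours FDFT1 and SQLE overlapped in their DMSO libraries, SCD and IDI1 lay apart, and ELOVL5, through its highest library, overlapped SQLE, SCD and IDI1 but not FDFT1. In LBH589, ELOVL5 overlapped both SQLE and INSIG1, and INSIG1 overlapped FDFT1. IDI1 in LBH589 stood above all libraries of the other 35. INSIG1 went from rank 13 to rank 4 and FASN from rank 16 to rank 29.

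Genes next to these pathways were counted from 6 lists, to be read against the 27.2% of all tested genes that rose and the 21.6% that fell, or 32.4% and 17.4% with libraries scaled to equal sums. Among 11 genes of SREBP processing and degradation, 2 rose and 2 fell (median 0.08, as over all genes); after that scaling, 4 rose and 1 fell, and with single libraries left out 1 to 3 rose and 1 or 2 fell. PAQR3, not called, passed the minimum level only through LBH589. SEC23A, a COPII coat protein (-0.51), and PGRMC1 (-0.35) fell, and FBXW7, the ubiquitin ligase subunit that marks nuclear SREBP for degradation (0.59), and ERLIN2 (0.55) rose. Among 14 isoprenoid branch genes, 4 fell and 1 rose (median -0.08); after the same scaling, 2 fell and 1 rose (median 0.04). Only 2 fell without DMSO replicate 3 or any one of the LBH589 libraries, and none rose without LBH589 replicate 2 or 3. PDSS1, of ubiquinone side chain synthesis, fell from 12.9 ± 0.644 to 7.68 ± 0.547 FPKM (SD, n = 3 each), and ZMPSTE24 (-0.58) and PGGT1B (-0.60), which process or attach prenyl groups, fell as well. DHDDS, of dolichol synthesis, measured 2.66, 6.22 and 4.95 FPKM in DMSO and 9.10, 10.1 and 12.7 FPKM in LBH589 and rose (1.09, SE 0.28, adjusted p = 0.0186).

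Among 17 tested genes of sterol trafficking and the LXR response, 6 rose and 7 fell (median -0.21). After the same scaling, 6 rose and 4 fell, with single libraries left out 4 to 6 rose and 5 or 6 fell, and with the most abundant transcript the median was 0.31. LIPA, the lysosomal acid lipase that frees cholesterol from lipoprotein esters, measured 34.7, 36.2 and 37.5 FPKM in DMSO and 133, 129.9 and 123 FPKM in LBH589. It was 3.56-fold higher with tight groups (log2 fold change 1.80, SE 0.08, adjusted p = 3.85e-05). OSBP, which exchanges sterol between endoplasmic reticulum and Golgi, rose from 18.9 ± 0.814 to 31.4 ± 1.06 FPKM (SD, n = 3 each). LRP8, a lipoprotein receptor, fell from 12.5 ± 2.27 to 2.29 ± 0.425 FPKM, and TMEM97, a sterol-regulated membrane protein, from 37.9 ± 12.2 to 6.08 ± 0.577 FPKM (SD, n = 3 each). NPC1 and NPC2, which pass cholesterol out of the lysosome, rose by 0.87 and 0.81 on the log2 scale, and the receptors SCARB1 (-1.24) and VLDLR (-0.42) fell. These last 4 were named after their values were seen.

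Among 18 tested genes of other fatty acid synthesis and activation, 8 rose and 4 fell (median 0.48; 8 and 2 after that scaling), and 2 of those that rose (FADS3 and ACSL6) passed the minimum level only through LBH589. Without DMSO replicate 3, 8 rose and 2 fell. ELOVL4, an elongase of very long chains, measured 2.70, 3.45 and 2.52 FPKM in DMSO and 18.98, 20.2 and 20.02 FPKM in LBH589. It was 6.82-fold higher by the means (log2 fold change 2.42, SE 0.13, adjusted p = 5.07e-05). ELOVL2, an elongase of polyunsaturated chains, measured 3.45, 3.84 and 4.53 FPKM in DMSO and 17.8, 19.5 and 19.4 FPKM in LBH589 and rose as well (2.02, SE 0.12, adjusted p = 7.85e-05). The FPKM ratio of ELOVL4 to ELOVL6 was 0.0909, 0.0933 and 0.0694 in DMSO and 2.22, 1.95 and 2.91 in LBH589, so their order of level turned in every LBH589 library. ACSL3, which activates fatty acids at lipid droplets, rose from 34.7 ± 2.88 to 82.2 ± 5.53 FPKM, and HACD1, a dehydratase of the elongation cycle, fell from 33.6 ± 3.32 to 11.3 ± 0.0523 FPKM (SD, n = 3 each). ELOVL7, chosen after its values were seen, rose by 1.29 on the log2 scale (SE 0.14, adjusted p = 0.000643).

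Of 16 tested glycerolipid and lipid droplet genes, 3 rose and 3 fell (median 0.26; 4 and 2 after that scaling, 2 to 4 and 2 with single libraries left out). One of the 3 that fell, LPIN3, passed the minimum level only through DMSO. The droplet coat PLIN2 (0.75) and the triglyceride lipase PNPLA2 (1.53) rose, and the acyltransferase GPAM (-0.44) and PNPLA3 (-1.15), often expressed with the lipogenic genes, fell. Of 19 fatty acid oxidation genes, 4 rose and 1 fell (median 0.11; 6 and 1 after that scaling, 2 and 1 without LBH589 replicate 3). One of the 4 that rose, ACADS, passed the minimum level only through LBH589. ETFDH, which passes electrons from fatty acid oxidation to ubiquinone, measured 6.34, 8.23 and 6.97 FPKM in DMSO and 34.0, 33.5 and 37.7 FPKM in LBH589 (log2 fold change 2.15, SE 0.12, adjusted p = 6.51e-05). CPT1A, the entry step of mitochondrial oxidation, rose by 0.99 and the coactivator PPARGC1A by 1.30, and ACAA2, the last thiolase of the cycle, fell from 44.4 ± 3.78 to 20.2 ± 1.29 FPKM (SD, n = 3 each).

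**Figure D5:**
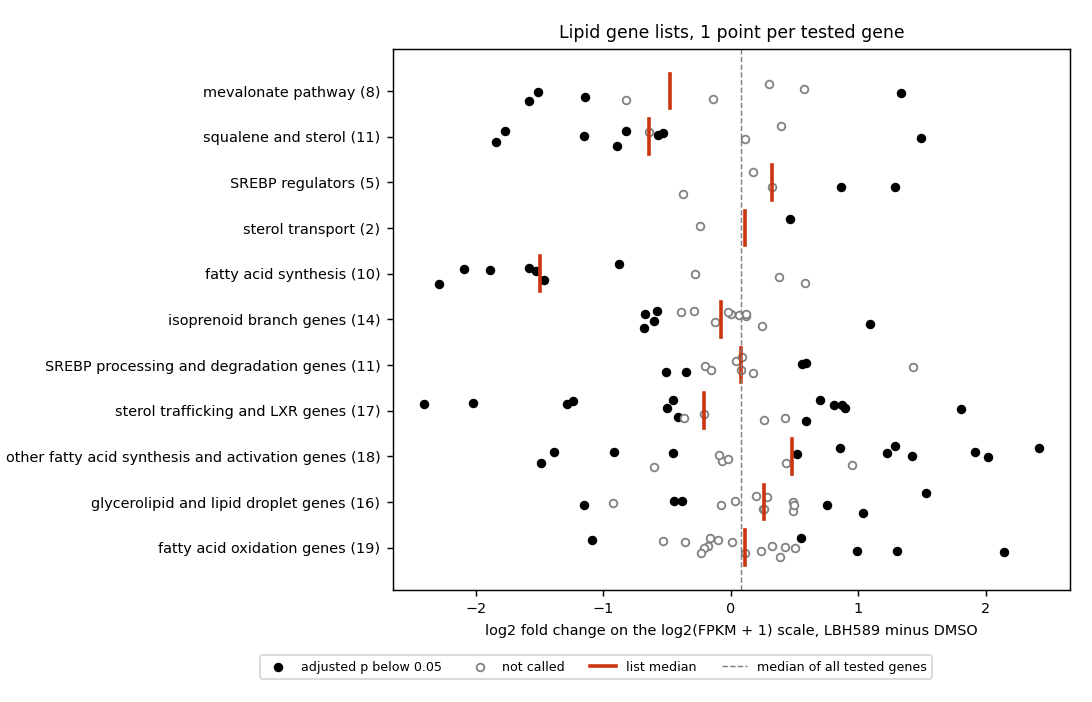
Log2 fold change (LBH589 minus DMSO on the log2(FPKM + 1) scale) of each tested gene in the 5 role groups of the 36 genes and in the 6 neighbouring lists, filled where called, with the list median as a bar and the all-gene median of 0.08 as a dashed line. The fatty acid synthesis group has its median at -1.5, and the list of other fatty acid synthesis and activation genes at 0.48.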

How the data were processed

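Gene expression of 6 libraries (3 DMSO, 3 LBH589) was read from 1 table per library, in which the authors deposited FPKM per transcript. The submitters' processing notes name Bowtie 0.12.2 and hg19 without their roles; quantifier, annotation, strand setting and filters: not given in the sources used here. In the higher of the 2 groups, no mean of the 30624 listed transcripts lies under 0.500 FPKM.

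Transcript IDs were named from GENCODE 29 (30504 matched, 99.6%; the rest took 0.106 to 0.142% of the summed FPKM and were left out) and FPKM was summed per gene. On log2(FPKM + 1), genes averaging 0.5 FPKM or more were tested with limma 3.58.1 (trend and robust, statmod 1.5.0, R 4.3.3), treatment as the only term, with Benjamini-Hochberg adjustment over 11520 genes and calls at 0.05. The script was tested on simulated data. Tables were made with Python 3.11.15, pandas 2.3.3 and scipy 1.17.1. FPKM carries no read counts, so no count model or counting interval was used. Promoter windows came from RefSeq (GRCh38.p14).

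The members and lists were chosen with earlier results of these data known. All 36 members are given; of each neighbouring list, up to 4 tested genes with the smallest adjusted p are named, and others are said to have been chosen after their values were seen. Alternatives changed the pseudocount, the filter, the scaling, the moderation, the transcript summary, the threshold and the libraries, and added the replicate number as a block.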

Additional observations from a re-analysis of the deposited data

How the results depend on the processing

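Of the 22 called genes among the 36, 12 kept call and direction under all 17 refits, 10 lost the call under at least 1 and none reversed. The number of members that rose was 5 and became 1 with the most abundant transcript, 3 with an adjusted p below 0.01, and 3 to 5 with single libraries left out; the lower value came without DMSO replicate 2 or LBH589 replicate 1. The number that fell was 17 and became 11 with the most abundant transcript; the cause was not tested. Over all genes, 1844 rose when a mean of at least 5 FPKM was required, where fewer genes were tested. Scaling to equal sums moved the all-gene median from 0.08 to 0.22. Of the calls, STARD4 was lost under 10 refits and INSIG2 under 5, and MVD (adjusted p = 0.0468) and ABCA1 (0.0237) were gained with quantile normalization. FADS2 was lost (adjusted p = 0.113) when only transcripts of at least 1000 bases were summed, an alternative chosen after seeing the data.

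Log2 fold changes that turned sign were all of genes not called: MVK was -0.069 with transcripts of at least 1000 bases, GGPS1 0.034 with equal sums and SREBF1 -0.23 with the most abundant transcript. With single libraries left out, MVK ran from -0.047 to 0.55 (negative without LBH589 replicate 2), GGPS1 from -0.38 to 0.26 (positive without LBH589 replicate 2), LSS from -0.21 to 0.41 (negative without DMSO replicate 3 and LBH589 replicates 2 and 3) and HSD17B7 from -0.092 to 0.92 (negative without DMSO replicate 2). With the replicate number as a block, 3 members rose and 18 fell, and 2617 genes rose and 2172 fell in all; INSIG2 (adjusted p = 0.0631) and STARD4 (0.0784) lost the call and DHCR7 gained it (0.0287). The deviations of same-numbered libraries correlated at -0.10, 0.02 and -0.04, and no library correlated best with its own number. With 3 libraries per group, these correlations cannot tell whether same-numbered libraries were paired. Read depth is unknown, and 3 libraries per group limit the precision.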
